A study of Mus musculus with 6 samples.

Results

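Ube2a and Ube2b are the mouse RAD6 paralogues, a pair of closely related ubiquitin-conjugating (E2) enzymes, and they are described here with 7 genes of the ubiquitin ligase (E3) complexes that work with them: Rad18, Rnf20, Rnf40, Wac, Ubr1, Ubr2 and Ubr4. The 9 genes were taken by name from the 27179 Entrez identifiers of the count files, and all 9 had enough reads to be tested. RNA came from germinal vesicle oocytes of the mouse, fully grown oocytes held in meiotic prophase. The 3 knockout libraries carried a deletion of the floxed exon 5 of Prdm10, a zinc finger transcriptional regulator, made by Cre recombinase from the oocyte-specific Zp3 promoter, and the 3 wildtype libraries carried an intact Prdm10. Cre of this kind deletes during oocyte growth, so other cells of the ovary keep the gene. Each library was a pool of about 10 oocytes. The labels call the pools biological replicates. Strain, age, whether pools came from separate mice and whether wildtype mice carried the floxed allele were not stated, so the p-values cover only the spread among the pools.

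RAD6 enzymes receive activated ubiquitin and pass it to a substrate that an E3 ligase selects. With the RNF20 and RNF40 heterodimer, which WAC links to RNA polymerase II, they attach ubiquitin to histone H2B on transcribed genes. With RAD18 they attach it to PCNA at stalled replication forks, the first step of DNA damage tolerance. With UBR1, UBR2 and UBR4, which recognise destabilising N-terminal residues, they mark proteins for decay by the N-end rule. In mice, females without Ube2a are infertile because their embryos fail at the start of cleavage, and males without Ube2b are infertile.

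The paralogues encode proteins of 152 codons each, and the coding sequences, read from GENCODE M21 transcripts, were identical at 354 of 456 positions (77.6%). The longest identical stretch had 17 bases, at the start codon, and the next 10. The opening 150 bases are shown because such differences can let a read of the coding sequence be assigned to Ube2a or to Ube2b. The transcripts are longer, at 1732 and 1792 bases, and the assignment of reads was not tested. Capitals mark the 37 positions that differ.
Ube2a: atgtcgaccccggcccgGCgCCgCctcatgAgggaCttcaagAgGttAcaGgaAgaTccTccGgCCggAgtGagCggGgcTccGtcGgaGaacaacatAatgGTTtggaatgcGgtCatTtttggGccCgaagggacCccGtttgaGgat
Ube2b: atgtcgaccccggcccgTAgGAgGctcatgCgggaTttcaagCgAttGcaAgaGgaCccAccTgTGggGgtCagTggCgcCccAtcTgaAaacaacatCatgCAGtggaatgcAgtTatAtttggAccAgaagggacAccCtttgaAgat

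The start regions of the paralogues are shown because Ube2a was nearly lost and Ube2b did not pass the test. They are the windows from 250 bases before to 50 bases after an annotated start, from RefSeq on GRCm38.p6, of which Ube2b has a pair. The annotated Ube2b gene reaches to 52004145, upstream of both windows, and that end is not shown. Capitals mark matches on either strand to the GC box (GGGCGG), the CCAAT box (CCAAT), the TATA box (TATAAA), the E-box (CACGTG) and the CRE (TGACGTCA), and no matches overlapped.
Ube2a window at chrX:36874045-36874344 (plus strand): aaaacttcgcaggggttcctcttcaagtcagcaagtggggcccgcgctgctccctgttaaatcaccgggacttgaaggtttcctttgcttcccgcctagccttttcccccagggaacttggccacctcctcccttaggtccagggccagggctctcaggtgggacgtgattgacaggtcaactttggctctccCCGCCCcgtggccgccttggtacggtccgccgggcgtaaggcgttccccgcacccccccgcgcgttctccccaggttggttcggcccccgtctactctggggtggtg
Ube2b window at chr11:52000737-52001036 (minus strand): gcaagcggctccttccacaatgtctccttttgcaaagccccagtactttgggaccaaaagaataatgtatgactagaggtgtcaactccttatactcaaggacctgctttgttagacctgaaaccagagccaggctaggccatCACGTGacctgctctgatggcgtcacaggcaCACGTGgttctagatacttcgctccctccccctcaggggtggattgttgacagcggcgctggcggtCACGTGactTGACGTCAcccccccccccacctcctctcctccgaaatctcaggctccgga
Ube2b window at chr11:52000442-52000741 (minus strand): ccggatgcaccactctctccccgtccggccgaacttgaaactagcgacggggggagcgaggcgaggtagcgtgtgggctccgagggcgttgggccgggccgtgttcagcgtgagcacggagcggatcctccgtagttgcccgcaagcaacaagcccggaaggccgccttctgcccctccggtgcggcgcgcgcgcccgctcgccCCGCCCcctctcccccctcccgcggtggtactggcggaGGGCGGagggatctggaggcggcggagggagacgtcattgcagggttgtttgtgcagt
The Ube2a window held 1 GC box and no other of these motifs. The upstream Ube2b window held 3 E-boxes and 1 CRE, and the downstream one 2 GC boxes. Among 32851 windows of the same length, 35.7% held a GC box, 37.4% a CCAAT box, 13.6% a TATA box, 7.15% an E-box and 1.79% a CRE. CpG dinucleotides numbered 20 in the Ube2a window and 12 and 36 in the Ube2b windows, where the median window had 7. A match is a stretch of letters and not a bound site.

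Libraries held 33698776 to 37966868 counts in knockout and 22492228 to 38831227 in wildtype. Prdm10 itself had 2.80, 3.82 and 3.05 CPM (counts scaled to library size, with TMM factors) in knockout libraries. In wildtype libraries it had 10.4, 23.1 and 23.0 CPM, the lowest in wildtype replicate 1. Its log2 fold change was -2.54 (SE 0.325, edgeR quasi-likelihood test, adjusted p = 0.00436), counted over the whole gene and not exon 5 alone. Wildtype replicate 1 stood apart, with Spearman correlations across genes of 0.976 and 0.975 to the other wildtype libraries, which correlated at 0.996 with each other. Those other wildtype libraries correlated better with the knockout libraries (0.978 to 0.981) than with wildtype replicate 1. Wildtype replicate 1 itself correlated with the knockout libraries at 0.957 to 0.963. Several results are therefore also given without it. The 12 oocyte markers summed to 26540 to 28230 CPM in knockout and 23110 to 28180 CPM in wildtype libraries. The sum hides shifts of single markers in wildtype replicate 1. There Bmp15 had 2106 CPM, against 5606 and 5370 CPM in wildtype replicates 2 and 3. Oosp1 went the other way, at 2293 CPM against 1201 and 1179 CPM, while Figla was even, at 40.9 CPM against 42.0 and 40.4 CPM. Among the 12 oocyte markers 1 passed, Mos, as lower (8.33%, against 11.2% of all tested genes). Mos had 662 ± 84.9 CPM in knockout oocytes, against 1015 ± 59.3 CPM in wildtype oocytes (SD, n = 3 each; log2 -0.62, adjusted p = 0.0274, edgeR). The 12 granulosa and cumulus markers summed to 74.4 to 86.9 CPM in knockout and 84.5 to 92.4 CPM in wildtype libraries, with Ptx3 at 0. The 8 theca and stroma markers summed to 3.89 to 5.91 CPM in knockout and 2.93 to 5.57 CPM in wildtype libraries. The 8 blood, immune and endothelial markers summed to 117 to 121 CPM in knockout and 36.3 to 82.2 CPM in wildtype libraries, mostly from Pecam1, with Hba-a1 and Cdh5 at 0. Of these Cd68, a macrophage marker, passed as higher, at 10.6 ± 0.407 CPM in knockout oocytes, against 2.10 ± 1.33 CPM in wildtype oocytes (SD, n = 3 each; log2 2.28, adjusted p = 0.0109, edgeR). Adgre1, of the same list, had 1, 2 and 2 reads in knockout libraries and 2, 1 and 0 reads in wildtype libraries. Ptprc had 3, 9 and 13 reads in knockout libraries and 1, 6 and 0 reads in wildtype libraries. Both had too few reads to be tested. The part of other cells in the results was not tested.

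Ube2a was nearly lost from knockout oocytes, while its paralogue and all 7 ligase genes did not pass the test. Thus 1 of the 9 genes passed (11.1%), as lower, and 0 as higher, where 11.2% of all tested genes passed, 5.34% as lower and 5.87% as higher. That share is near the background and is no result about the group. The genotypes did not overlap for 3 of the 9, Ube2a below and Rnf20 and Rnf40 above, against 40.2% of all tested genes. The median log2 fold change was 0.05 over the 9 genes and -0.00248 over all tested genes.

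Ube2a (Entrez 22209, chromosome X, 36874295 to 36884222, plus strand) had 8.87, 6.92 and 7.15 CPM in knockout libraries and 331.5, 319 and 336 CPM in wildtype libraries. Every knockout library lay far below every wildtype library, and the wildtype libraries, replicate 1 included, were close to one another, with a highest to lowest ratio of 1.05. The mean was 7.65 ± 1.07 CPM in knockout oocytes, against 329 ± 8.49 CPM in wildtype oocytes (SD, n = 3 each). This was a 43.0-fold decrease (log2 -5.43, SE 0.156, 95% interval -5.79 to -5.07, edgeR quasi-likelihood test with Benjamini-Hochberg adjustment over 14957 genes, adjusted p = 9.85e-06). Of the 1676 genes past an adjusted p of 0.05, 5 genes, Ube2a among them, had a log2 fold change at or below this value. The remaining signal rested on 301, 259 and 270 reads in knockout libraries, against 13805, 8293 and 7342 reads in wildtype libraries, well above a floor of 3 counts (0.0795 to 0.0884 CPM in knockout libraries). In pooled oocytes, fewer cells with the transcript and less transcript per cell cannot be told apart.

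**Figure D1:**
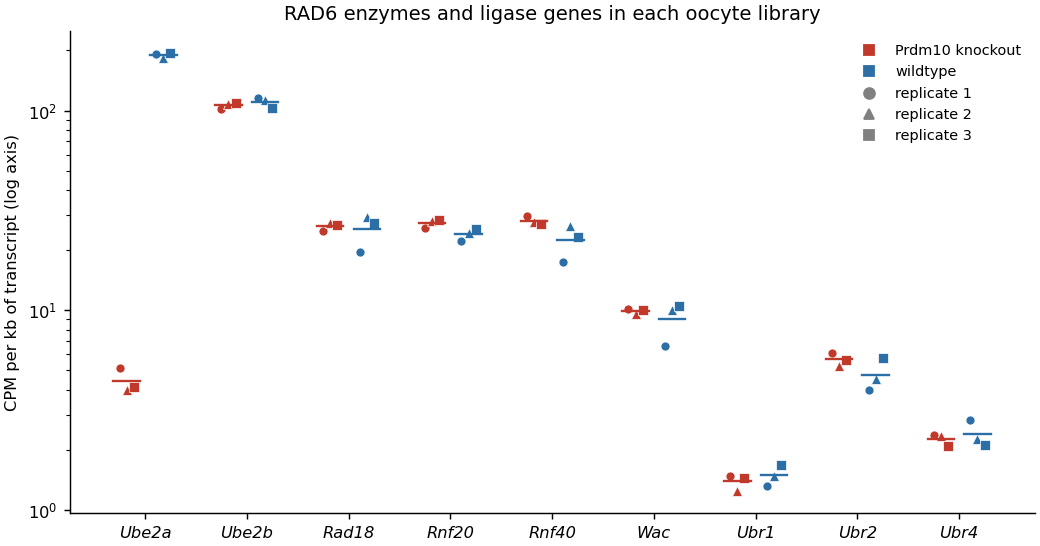
Level of each of the 9 genes in each library, in CPM per kb of transcript on a log axis, knockout left of wildtype; marker shapes give the replicate number and lines the means. Ube2a lies between 3.99 and 5.12 in knockout and between 184 and 194 in wildtype libraries, and for the other genes the genotypes lie close together or overlap.

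Ube2b, the autosomal paralogue (Entrez 22210, chromosome 11, 51985138 to 52004145, minus strand), had 182, 194 and 196 CPM in knockout libraries and 207, 202.5 and 184 CPM in wildtype libraries. The ranges overlapped, and the means were 190.5 ± 7.46 CPM in knockout oocytes, against 198 ± 12.3 CPM in wildtype oocytes (SD, n = 3 each). The log2 fold change was -0.06 (SE 0.110, adjusted p = 0.769, edgeR). Its 95% interval, -0.31 to 0.20 on the log2 scale, reached at most a 1.15-fold increase in knockout oocytes. Without wildtype replicate 1 the log2 fold change was -0.02 (adjusted p = 0.818, edgeR). A processed pseudogene, Gm11507, resembles 420 bases of the Ube2b transcript at 86.9% identity, so a part of the reads could be shared.

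Divided by transcript length, Ube2a was by far the less abundant paralogue in knockout oocytes and the more abundant one in wildtype oocytes. Ube2a made up 4.80, 3.56 and 3.64% of the combined level in the knockout libraries, against 62.3, 62.0 and 65.4% in the wildtype libraries. The share was 4.0 ± 0.693% in knockout oocytes, against 63.2 ± 1.85% in wildtype oocytes (SD, n = 3 each). An exact permutation test, two-sided, gave p = 0.1, which is the lowest value possible with 3 libraries a genotype. As a share of reads, without length, the 95% Wilson intervals lay within 3.06 to 5.19% in the knockout libraries and 60.4 to 65.5% in the wildtype libraries, which covers counting error only. The summed level of the pair was 107, 112 and 113 CPM per kb in knockout libraries and 307, 297 and 297 CPM per kb in wildtype libraries. The sum was thus 2.71-fold lower, at 111 ± 3.57 CPM per kb in knockout and 300.4 ± 5.83 CPM per kb in wildtype oocytes (SD, n = 3 each; p = 0.1 in the same exact test), and the groups did not overlap.

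**Figure D2:**
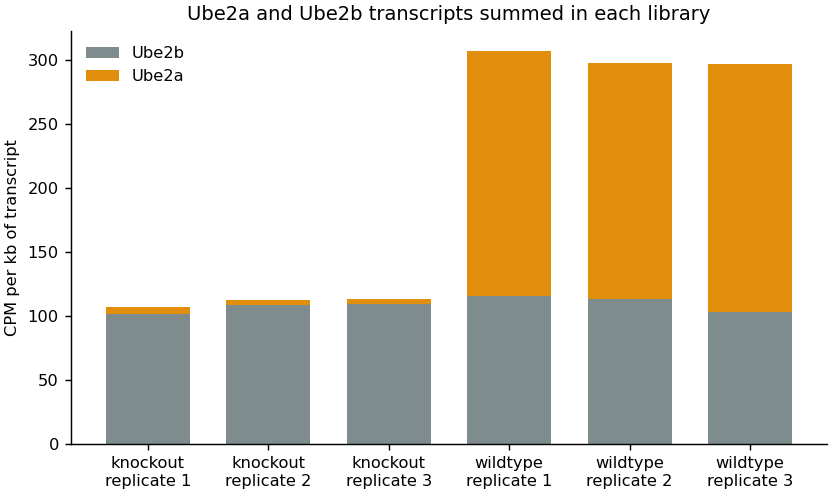
Ube2a (orange) stacked on Ube2b (grey) in each library, in CPM per kb of transcript. The sums lie between 107 and 113 in knockout and between 297 and 307 in wildtype libraries, and the Ube2b portion lies between 102 and 116 in every library.

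In knockout oocytes the order of levels per kb was Ube2b (106 CPM per kb), Rnf40 (28.1), Rnf20 (27.4), Rad18 (26.3), Wac (9.90), Ubr2 (5.67), Ube2a (4.42), Ubr4 (2.27) and Ubr1 (1.39). In wildtype oocytes it was Ube2a (190 CPM per kb), Ube2b (110.5), Rad18 (25.4), Rnf20 (24.1), Rnf40 (22.4), Wac (9.03), Ubr2 (4.75), Ubr4 (2.40) and Ubr1 (1.49). In each genotype the libraries of Rad18, Rnf20 and Rnf40 overlapped between neighbours in the order, while those of the other neighbours did not. Ube2a thus stood 7th of the 9 in knockout oocytes and 1st in wildtype oocytes. Of 13399 tested genes with a known length, 46.8% lay below Ube2a in knockout oocytes, against 97.4% in wildtype oocytes. For Ube2b the shares were 94.5% in knockout oocytes and 94.8% in wildtype oocytes. The lengths used run from 1.73 kb for Ube2a to 15.9 kb for Ubr4. How evenly reads covered transcripts was not measured, so the order between genes of unlike length is uncertain.

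Rad18, the ligase that pairs with RAD6 on PCNA (Entrez 58186, chromosome 6, 112619851 to 112696691), had 64.4, 70.2 and 68.6 CPM in knockout libraries and 50.3, 75.6 and 70.5 CPM in wildtype libraries. The knockout libraries lay inside the wildtype range, whose low end was wildtype replicate 1. The log2 fold change was 0.05 (95% interval -0.33 to 0.43, adjusted p = 0.868, edgeR) and -0.11 without wildtype replicate 1 (adjusted p = 0.255, edgeR), so its direction depended on that library.

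Of the H2B ligase genes, Rnf40 and Rnf20 had the higher values in knockout oocytes but did not pass the test. Rnf40 (Entrez 233900, chromosome 7, 127588698 to 127603605) had 157, 146 and 142 CPM in knockout libraries and 92.3, 140 and 123 CPM in wildtype libraries. All knockout libraries lay above all wildtype libraries, narrowly so for wildtype replicate 2. The log2 fold change was 0.33 (95% interval -0.05 to 0.70, adjusted p = 0.231, edgeR), and 0.17 without wildtype replicate 1 (adjusted p = 0.0853, edgeR). An antisense gene, 1700120K04Rik, shares 546 exonic bases with Rnf40 in GENCODE, though not by the RefSeq coordinates. It had 0.267 ± 0.0476 CPM in knockout oocytes, against 0.253 ± 0.107 CPM in wildtype oocytes (SD, n = 3 each). A further antisense gene in GENCODE, Gm44759, shares 216 exonic bases with Rnf40.

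Rnf20 (Entrez 109331, chromosome 4, 49632005 to 49656887), the partner of RNF40 in the heterodimer, had 111, 120 and 123 CPM in knockout libraries and 95.8, 106 and 110 CPM in wildtype libraries. Its groups were separate as well, though the lowest knockout and the highest wildtype library were close. The log2 fold change was 0.18 (95% interval -0.08 to 0.45, adjusted p = 0.319, edgeR). Wac, the adaptor (Entrez 225131, chromosome 18, 7868825 to 7929028), had 52.6, 50.1 and 52.0 CPM in knockout libraries and 34.3, 51.9 and 54.8 CPM in wildtype libraries. Its groups overlapped, with wildtype replicate 1 the lowest of the 6 libraries. The log2 fold change was 0.13 (adjusted p = 0.654, edgeR), and -0.05 without wildtype replicate 1 (adjusted p = 0.625, edgeR). The pseudogene Gm18943 resembles 757 bases of the Wac transcript at 96.7% identity, and the antisense gene AC130718.2 shares 260 exonic bases with Wac in GENCODE. Reads could be shared with both.

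The N-end rule ligase genes did not pass the test. Ubr1 (Entrez 22222, chromosome 2, 120860272 to 120970760) had 11.4, 9.64 and 11.2 CPM in knockout libraries and 10.2, 11.5 and 13.04 CPM in wildtype libraries. Ubr2 (Entrez 224826, chromosome 17, 46928291 to 47010886), which also acts in male meiosis, had 46.7, 40.1 and 43.1 CPM in knockout libraries and 30.5, 34.4 and 43.9 CPM in wildtype libraries. Ubr4 (Entrez 69116, chromosome 4, 139380659 to 139489533), a very large member of the family, had 37.8, 37.3 and 33.4 CPM in knockout libraries and 44.9, 36.2 and 33.7 CPM in wildtype libraries. The genotypes overlapped for all 3 genes. Their log2 fold changes were -0.10, 0.26 and -0.08 for Ubr1, Ubr2 and Ubr4 (adjusted p = 0.687, 0.328 and 0.738, edgeR), and the 95% intervals together spanned -0.46 to 0.63. Without wildtype replicate 1 the value of Ubr4 turned to 0.05 (adjusted p = 0.713, edgeR). AV039307, on the opposite strand, shares 308 exonic bases with Ubr1 in GENCODE. It had 2, 11 and 5 reads in knockout libraries and 8, 6 and 6 reads in wildtype libraries, too few to be tested. Emc1, whose GENCODE annotation runs into Ubr4 and shares 109 exonic bases with it, averaged 4.11 ± 0.304 CPM in knockout oocytes, against 3.63 ± 0.669 CPM in wildtype oocytes (SD, n = 3 each; log2 0.19, adjusted p = 0.561, edgeR).

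**Figure D3:**
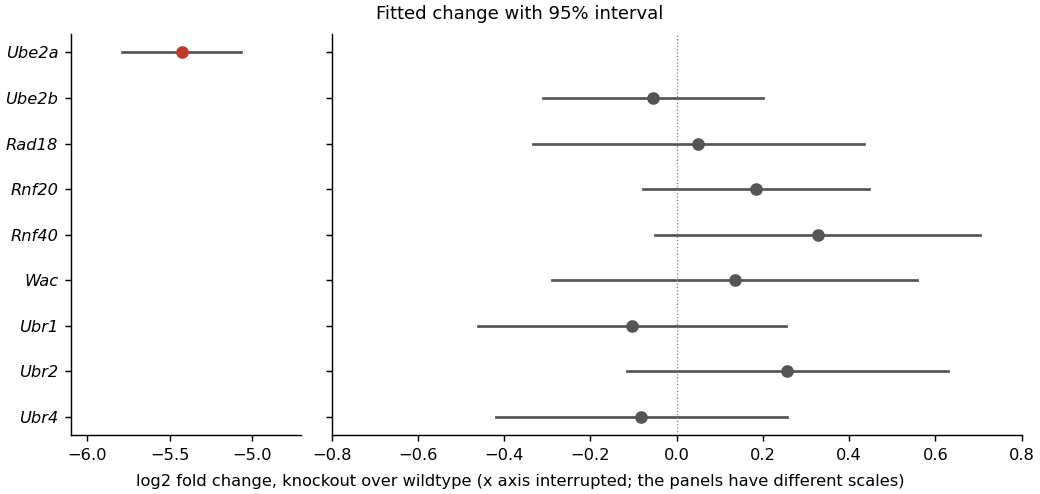
Fitted log2 fold change (knockout over wildtype) of each gene with its 95% interval; the x axis is interrupted and the panels differ in scale. Ube2a, in red, is the gene past the threshold at -5.43, and the intervals of the other 8 genes cross 0.

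The gene next to Ube2a did not pass the test. C330007P06Rik (Entrez 77644) runs from the opposite strand and, in GENCODE, overlaps Ube2a by 212 bases without a shared exon. It had 9.81, 12.2 and 14.0 CPM in knockout libraries and 11.6, 17.9 and 19.9 CPM in wildtype libraries, ranges that overlapped (log2 -0.45, SE 0.232, adjusted p = 0.246, edgeR).

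Across the 6 libraries the genes with a profile most like that of Ube2a, by Euclidean distance of centred log2 CPM, were Nmral1 (distance 0.566), Ptov1 (0.766), Selenow (0.877), Pafah1b3 (0.999) and Madd (1.13). Selenow encodes a small selenoprotein, Pafah1b3 an enzyme that hydrolyses platelet-activating factor and Madd a regulator of RAB3 exocytosis. Pearson's r of log2 CPM with Ube2a lay between 0.989 and 0.999, a description over 6 libraries that share the same contrast of genotypes. Nmral1 averaged 0.251 CPM in knockout oocytes, against 16.6 CPM in wildtype oocytes, and Madd 1.52 CPM in knockout oocytes, against 45.9 CPM in wildtype oocytes. The log2 CPM used a prior count of 2, which shrinks falls to such low levels. In the edgeR fit Nmral1 fell further than Ube2a, at log2 -6.04 against -5.43.

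Genes that act beside the RAD6 enzymes were followed in 4 lists, by pathway. The H2B ubiquitination list held the PAF1 complex, FACT, Supt6, Cdk9, Dot1l and the H2B deubiquitinases. Of its 18 tested genes (19 listed) 1 rose, 1 fell and 16 did not pass (11.1% called, against 11.2% of all tested genes), with a median log2 fold change of -0.06. Cdk9, the kinase of the elongation factor P-TEFb, had 25.4, 22.5 and 20.5 CPM in knockout libraries and 6.10, 12.98 and 13.2 CPM in wildtype libraries. All knockout libraries were higher (log2 1.09, SE 0.284, adjusted p = 0.0470, edgeR), by less without wildtype replicate 1 (0.80, adjusted p = 0.000388, edgeR). Usp49, which removes ubiquitin from H2B, fell 1.54-fold, to 20.9 ± 0.878 CPM in knockout, against 32.2 ± 4.53 CPM in wildtype oocytes (SD, n = 3 each, adjusted p = 0.0310, edgeR). Both calls were lost without any 1 of the 3 knockout libraries or wildtype replicate 2 or 3, with an adjusted p from 0.0516 to 0.182 in edgeR. Usp49 shares 4392 exonic bases with the annotated gene Gm20517, so its count is uncertain.

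Usp27x and Atxn7, a deubiquitinase of H2B and a subunit of the SAGA deubiquitinating module, came next by p. Their log2 fold changes were -0.45 and -0.37 (adjusted p = 0.0808 and 0.0872, edgeR), with every knockout library below every wildtype library. Without wildtype replicate 1 this list had 8 genes past the threshold, 4 higher and 4 lower, where 34.4% of all tested genes passed.

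**Figure D4:**
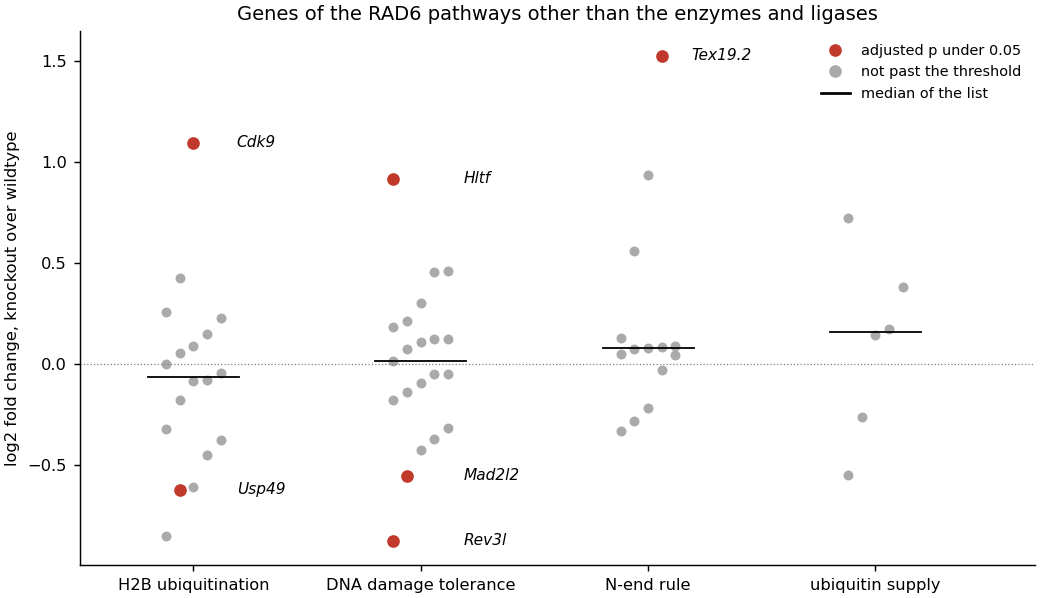
Log2 fold change (knockout over wildtype) of each tested gene in 4 lists; red points pass an adjusted p of 0.05, grey points do not, and black lines are list medians. The 6 red genes run from -0.87 (Rev3l) to 1.53 (Tex19.2), and the medians lie between -0.06 and 0.16.

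In the DNA damage tolerance list, Rev3l and Mad2l2 fell and Hltf, a ligase that extends the ubiquitin chain on PCNA, rose. Of 21 tested genes 1 rose, 2 fell and 18 did not pass (14.3% called, against 11.2% of all tested genes), with a median log2 fold change of 0.02. Rev3l, the catalytic subunit of DNA polymerase zeta, had 39.8, 34.5 and 38.8 CPM in knockout libraries and 76.1, 66.6 and 64.3 CPM in wildtype libraries. The groups were well apart (log2 -0.87, SE 0.127, adjusted p = 0.00685, edgeR). Mad2l2, which encodes the REV7 subunit of the same polymerase, had 38.8, 44.6 and 39.9 CPM in knockout libraries and 63.4, 57.7 and 59.3 CPM in wildtype libraries (log2 -0.55, SE 0.118, adjusted p = 0.0270, edgeR). Hltf, a relative of yeast Rad5, had 56.7, 64.1 and 64.1 CPM in knockout libraries and 30.8, 32.7 and 34.5 CPM in wildtype libraries. It was 1.89-fold higher (log2 0.92, SE 0.120, adjusted p = 0.00475, edgeR), and passed without any 1 library, although a pseudogene, Gm16421, resembles 1557 bases of its transcript.

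The call of Mad2l2 was lost without any 1 library other than wildtype replicate 1 (adjusted p from 0.0642 to 0.127, edgeR), and that of Rev3l without knockout replicate 2 (adjusted p = 0.0592, edgeR). Slf1 and Slf2, which link RAD18 to the SMC5/6 complex, did not pass, at log2 -0.42 and 0.46 (adjusted p = 0.0614 and 0.0658, edgeR), and for each the groups were separate. Without wildtype replicate 1, 2 genes of this list were higher and 8 lower, where 34.4% of all tested genes passed. Without knockout replicate 2, 1 was higher and 0 lower, where 2.35% of all tested genes passed.

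In the N-end rule list 1 of 14 tested genes rose, 0 fell and 13 did not pass (7.14% called, against 11.2% of all tested genes), with a median log2 fold change of 0.08. Tex19.2 had 52.0, 45.6 and 38.2 CPM in knockout libraries and 12.6, 14.1 and 20.6 CPM in wildtype libraries. The groups were separate, a 2.88-fold increase (log2 1.53, SE 0.214, adjusted p = 0.00599, edgeR), and the call held without any 1 library. Its neighbour and paralogue Tex19.1, whose product binds UBR2, had 235, 204 and 190 CPM in knockout libraries and 52.8, 138 and 138 CPM in wildtype libraries. It did not pass (log2 0.94, SE 0.334, adjusted p = 0.112, edgeR), but passed without wildtype replicate 1 (0.60, adjusted p = 0.000292, edgeR). The pair is 89.0% identical over 418 bases of transcript, so a part of the reads could be shared. Ate1, the arginyltransferase that creates N-end rule signals, did not pass (log2 -0.33, adjusted p = 0.147, edgeR).

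Of the 6 genes that supply ubiquitin and its activating enzymes 0 passed in edgeR (1 in DESeq2 and 1 at an unadjusted p under 0.05 in edgeR), where 11.2% of all tested genes passed, and their median log2 fold change was 0.16. Ubb, a polyubiquitin gene, had 135, 139 and 137.5 CPM in knockout libraries and 99.2, 109 and 107 CPM in wildtype libraries (log2 0.38, adjusted p = 0.0561, edgeR). Uba1, the main ubiquitin-activating enzyme, had 256, 254 and 249 CPM in knockout libraries and 272, 328 and 310 CPM in wildtype libraries (log2 -0.26, adjusted p = 0.184, edgeR). For both the groups did not overlap, and without wildtype replicate 1 Ubb passed as higher and Uba1 as lower (log2 0.34 and -0.34, adjusted p = 0.00112 and 0.000801, edgeR). Ubiquitin genes have near-identical repeats and copies, so their counts are uncertain.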

How the data were processed

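RNA from pools of about 10 oocytes was extracted with the PicoPure kit, amplified with the SMARTer Ultra Low Input kit and sequenced single-end from NexteraXT libraries, per the labels' protocols. The authors deposited raw read counts per Entrez gene, 1 table per library, made with STAR 2.7.11a and featureCounts 2.0.3 on GRCm38.p6, per the submitters' processing notes. The annotation, strand setting and handling of multi-mapped reads were not stated, so reads of overlapping genes and copies may be shared or lost. No pair of libraries agreed within sampling noise.

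Identifiers were named from RefSeq (25275) and GENCODE M21 (18), and 1886 stayed unnamed. Genes passing edgeR's filterByExpr (minimum count 10) were tested for genotype with edgeR 4.0.16 (R 4.3.3; TMM scaling, quasi-likelihood F test, Benjamini-Hochberg adjustment over all tested genes, threshold 0.05). SE is the absolute log2 fold change over the square root of F, and 95% intervals use its t distribution. Levels per length are CPM over the longest GENCODE coding transcript in kb. Copies were sought with blastn (at least 85% identity over 100 bases and 10% of the transcript). The fit was tested on simulated data.

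The genes and lists were chosen with earlier results of these data known. Named genes were the 9, up to 4 called and 2 uncalled genes per list, the 5 nearest profiles of at least 10 CPM, overlapping genes and copies. Alternatives were DESeq2 size factors, library totals, no filter or 5 CPM in 3 libraries, DESeq2 1.42.0, limma-voom (limma 3.58.1) with and without quality weights, a block for the replicate number, and each library left out in turn.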

Additional observations from a re-analysis of the deposited data

How the results depend on the processing

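The fall of Ube2a passed under all 14 alternatives (log2 -5.54 to -5.38, highest adjusted p = 0.000788), and 1 of the 9 genes passed in each. In the same alternatives 2.35 to 39.7% of all tested genes passed. The other 8 genes passed in none. Directions turned, without a call, with limma-voom quality weights for Rad18 (-0.08226), Wac (-0.0436) and Ubr4 (0.02195), and without wildtype replicate 1. Leaving out 1 library gave -0.11 to 0.16 for Rad18, -0.05048 to 0.2611 for Wac and -0.1631 to 0.04827 for Ubr4. The Ube2a share and the summed level kept their direction in every alternative run.

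Over all genes 1676 passed (11.2% of those tested), against 1038 with the 5 CPM filter (10.5%), 2671 with DESeq2 (17.9%) and 5943 with limma-voom quality weights (39.7%). With library totals 1505 passed (10.1%). Leaving out 1 library gave 357 to 5199 (2.35 to 34.4%), the highest without wildtype replicate 1. The list counts that follow come from settings with these unlike shares, so their rise or fall is no result about a list. In the H2B list 2 genes passed, against 4 with DESeq2, 9 with quality weights and 0 to 8 with 1 library left out. In the DNA damage tolerance list 3 passed, against 5 with DESeq2, 9 with quality weights and 1 to 10 with 1 library left out. In the N-end rule list 1 passed, against 2 with DESeq2, 4 with quality weights and 1 to 2 with 1 library left out. In the ubiquitin supply list 0 passed, against 1 with library totals, 1 with the 5 CPM filter, 1 with DESeq2, 2 with quality weights and 0 to 2 with 1 library left out. The causes were not tested.

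The replicate numbers did not pair the libraries: deviations of same-numbered libraries correlated at -0.06, 0.01 and -0.09. No library correlated best with the library of its own number in the other genotype. With the replicate block 537 genes passed, 3.59% of all tested genes. Of these 0 were in the H2B list (Cdk9 and Usp49 lost), 2 in the DNA damage tolerance list (Mad2l2 lost, adjusted p = 0.102, edgeR) and 1 in the N-end rule list. The adjusted p of Ube2a stayed under 0.05 in edgeR with this block.

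With 3 pools per genotype, the 95% intervals of the 8 genes that did not pass reached from -0.46 to 0.70 on the log2 scale, and smaller changes of a single gene were not always detectable.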
